A study of Mus musculus with 6 samples.

Results

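Naive and quiescent T cell genes were followed in mouse CD4 T cells driven toward the TH17 fate, helper cells that secrete IL-17, in the absence or presence of glutamine. The set was a list of 9 genes for transcription factors and a homing receptor: Klf2, Klf3, Foxo1, Foxp1, Tcf7, Lef1, Bach2, Satb1 and S1pr1. A gene entered when a row of the array table named it and no other gene. By that rule 8 of the 9 were measured, with 1 row each, out of 30701 genes in the table. Tcf7 is not analysed here.

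The comparison asks what the lack of glutamine does to these transcripts. There were 2 groups of 3 arrays, labelled as biological replicates: TH17-skewed cultures without glutamine, and the same cultures with glutamine, which served as controls. Both groups started from naive CD4+ cells, sorted by flow cytometry as CD25- and CD44- among other markers, that were stimulated through CD3 and CD28 for 3 days. The medium of both held 10% serum, the cytokines IL-6 (20 ng/ml), IL-23 (20 ng/ml) and TGF-beta (1.25 ng/ml), and antibodies (10 ug/ml) that neutralize IL-4, IL-12 and IFN-gamma. GEO's labels name no strain, age or donor, so p-values measure only the spread between these arrays, which may be technical. They give no amount of glutamine left in the medium from the serum.

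Levels are log2 values of Affymetrix arrays on the scale the authors deposited. Each change below is a difference of group means in log2 units, positive where cultures without glutamine were higher. Between 695 and 887 rows per array exceeded 16 log2, so the deposited scale may be stretched and changes are not turned into folds. Array medians were 4.33 to 4.38 log2 without glutamine and 4.18 to 4.21 log2 with it. The median change of all genes was 0.060 on the deposited scale. It was -0.048 when the arrays were quantile normalized and -0.095 when each was centred on its median. A gene was called when its adjusted p was under 0.05 (limma, Benjamini-Hochberg over all 30701 genes). In such bulk RNA, fewer cells that carry a transcript and less of it per cell cannot be told apart.

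Naive T cells are held in a resting state by a small network of transcription factors. FOXO1 sits near its top: when growth factor signalling through PI3K and AKT is low it stays in the nucleus and switches on Klf2 and, with KLF2, genes for lymphoid homing such as Ccr7 and S1pr1. Strong stimulation through the T cell receptor sends FOXO1 out of the nucleus, and the network is normally turned down as cells grow, divide and take on an effector fate. TCF-1, the product of Tcf7, and its partner LEF1 keep T cell identity and self-renewal, while FOXP1 and BACH2 restrain activation and effector genes.

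The promoters of 3 of the genes that rose, Klf2, Klf3 and Foxo1, are shown because KLF factors and FOXO1 act on genes of their own network and each of the 3 has a single listed start site. Bach2, the other riser with a single listed start, holds 0 of the KLF-type boxes searched and is not printed. Each run is the 250 bases before that start in RefSeq (GRCm38.p6), 5′ to 3′ on the gene's strand. Capitals mark KLF-type boxes, searched as CCNCNCCC on both strands with overlapping matches counted. In Klf2 they also mark CTAAATTTAG, a match to the MEF2 motif.

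Klf2 (chr8:72318812-72319061, + strand): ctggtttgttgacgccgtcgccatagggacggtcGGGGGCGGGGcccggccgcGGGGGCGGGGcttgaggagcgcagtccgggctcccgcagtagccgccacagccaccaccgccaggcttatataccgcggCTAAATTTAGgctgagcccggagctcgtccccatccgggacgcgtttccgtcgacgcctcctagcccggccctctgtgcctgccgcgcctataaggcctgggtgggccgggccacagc
Klf3 (chr5:64803271-64803520, + strand): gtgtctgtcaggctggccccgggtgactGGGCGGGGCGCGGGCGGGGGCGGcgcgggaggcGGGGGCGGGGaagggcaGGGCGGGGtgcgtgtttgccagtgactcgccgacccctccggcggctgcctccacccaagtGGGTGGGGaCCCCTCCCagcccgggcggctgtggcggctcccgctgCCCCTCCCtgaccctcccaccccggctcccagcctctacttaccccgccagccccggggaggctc
Foxo1 (chr3:52268087-52268336, + strand): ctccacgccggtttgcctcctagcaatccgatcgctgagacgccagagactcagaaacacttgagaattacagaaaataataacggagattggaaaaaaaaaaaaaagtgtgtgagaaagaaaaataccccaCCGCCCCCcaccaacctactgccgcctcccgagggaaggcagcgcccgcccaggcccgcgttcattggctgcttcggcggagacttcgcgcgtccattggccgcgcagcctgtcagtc

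These windows held 4 KLF-type matches in Klf2, 10 in Klf3 and 1 in Foxo1, and their GC content was 71.2%, 78.4% and 56.0%. Such a box is common: 45.9% of the 32851 promoters in the RefSeq table hold at least 1 in the same window. S1pr1 had no promoter entry and was not searched. Of the 8 listed genes with one, Tcf7 included, 7 held a box in at least 1 window, as did 15 of their 18 windows. The 7 include Satb1, which fell, and Lef1, which was not called. The 45.9% counts single promoters, whereas a gene here had up to 5 windows. Some windows of Lef1 and of Satb1 overlap, so that boxes in them are counted again. The MEF2 motif was found in 1.69% of promoters, and among these 8 genes in that of Klf2. MEF2 factors are known activators of Klf2 in endothelial cells. A FOXO motif searched as GTAAACA on both strands stood in none of the 18 windows, against 3.17% of all promoters. Neither CTTTGAT, for TCF/LEF, nor TGANTCA, for BACH and AP-1 factors, stood in any of them, against 3.21% and 6.75% of all promoters. Motifs this rare can be missing from 18 windows without being scarce there, so no lack of sites is read from their absence. These counts describe letters in a short window and not binding.

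Of the 8 measured genes, 5 were higher without glutamine, 1 was lower and 2 were not called. Among all genes 9.30% were called higher and 13.0% lower. After quantile normalization those shares were 4.74% and 17.1%, and after centring they were 3.96% and 20.0%. Calls were more frequent among brighter genes: in a refit of the 15350 genes above the median level, 2425 were called higher and 4089 lower. The risers were Klf2, Klf3, Foxo1, Foxp1 and Bach2, Satb1 fell, and Lef1 and S1pr1 did not pass the test. With a change of at least 1 log2 also required, 3 were higher and 0 lower, against 1.24% and 2.84% of all genes. The groups did not overlap in 7 of the 8, as in 43.8% of all genes. The median change of the 8 was 0.87. The list was drawn up with results of these arrays known, so its share of rises is a description.

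**Figure D1:**
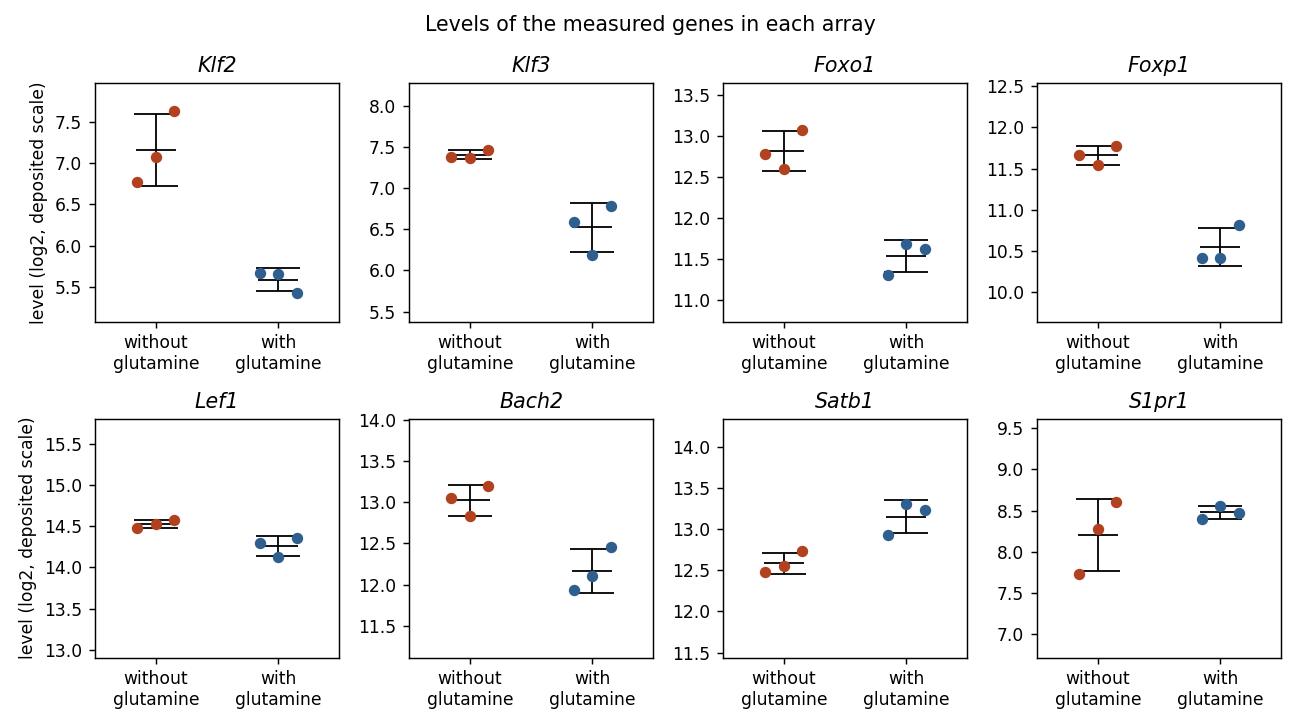
Levels of the 8 measured genes in every array, in log2 on the deposited scale. Dots are arrays in the order of their replicate numbers, cultures without glutamine at the left of each panel and with glutamine at the right, and bars are the mean ± SD (n = 3). Every panel spans the same number of log2 units; the groups separate in all panels but that of S1pr1.

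Klf2 encodes the zinc-finger factor that keeps T cells quiescent and lets them recirculate through lymphoid tissue. It read 6.77, 7.08 and 7.63 log2 in the cultures without glutamine, against 5.67, 5.66 and 5.42 log2 in those with it. Each culture without glutamine stood at least 1.10 above every culture with it. The mean was 7.16 ± 0.44 without glutamine and 5.59 ± 0.14 with it (SD, n = 3 each), a change of 1.58 (SE 0.21, limma adjusted p = 0.00375). It was the largest change of the set and ranked 64 among the rises of all genes. The spread without glutamine was wide, 0.86 between the lowest and highest array against 0.25 with glutamine.

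Klf3 encodes a relative that mostly represses transcription, through the co-repressor CtBP. Its levels were 7.38, 7.37 and 7.46 log2 without glutamine, against 6.59, 6.19 and 6.78 log2 with it. Here the cultures without glutamine lay within 0.10 of each other and those with glutamine spread over 0.58. The change was 0.88 (SE 0.15, limma adjusted p = 0.00805), with no overlap between groups.

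Foxo1 read 12.78, 12.60 and 13.07 log2 without glutamine, against 11.31, 11.68 and 11.63 log2 with it. Its groups were separated by 0.92. The mean was 12.82 ± 0.24 without glutamine and 11.54 ± 0.20 with it, and the change of 1.28 (SE 0.15) had a limma adjusted p of 0.00226. The array measures the transcript alone. FOXO1 is known to be controlled largely through phosphorylation and export from the nucleus, on which these data hold nothing.

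Foxp1 encodes a forkhead repressor that keeps naive T cells resting and competes with FOXO1 at the Il7r gene. It stood at 11.66, 11.54 and 11.77 log2 without glutamine, against 10.42, 10.41 and 10.82 log2 with it. All arrays without glutamine lay above all arrays with it, by at least 0.72. The change of 1.11 (SE 0.13) had the lowest adjusted p of the set (limma, 0.00222).

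Bach2, whose product represses effector genes and supports memory and regulatory T cells, read 13.05, 12.83 and 13.20 log2 without glutamine, against 11.93, 12.11 and 12.46 log2 with it. The gap between the groups was 0.37, narrower than for the other risers. Its change was 0.86 (SE 0.16, limma adjusted p = 0.0112). Bach2os, an antisense gene within the Bach2 locus, moved the same way: it read 5.87, 6.11 and 6.67 log2 without glutamine, against 5.14, 5.11 and 5.30 log2 with it, a change of 1.03 (limma adjusted p = 0.0131). It was added, after its values were seen, because it overlaps Bach2, and the array may not fully separate the signals of the 2 genes.

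Lef1 changed little. Its levels were 14.48, 14.53 and 14.58 log2 without glutamine, against 14.30, 14.13 and 14.36 log2 with it. The groups were separated by 0.11, but the change of 0.27 was not called (limma adjusted p = 0.0652), and its 95% interval ran from 0.07 to 0.46. With quantile normalization the change was 0.065 (adjusted p = 0.809). With array weights it was called, at 0.30 (adjusted p = 0.0408), and so it was among protein coding genes only, an alternative chosen after seeing the data (adjusted p = 0.0402).

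Satb1 encodes a chromatin organiser that shapes gene expression in thymocytes and regulatory T cells, and it was the gene of the set that fell. It read 12.48, 12.55 and 12.73 log2 without glutamine, against 12.93, 13.30 and 13.23 log2 with it. The groups lay 0.20 apart. The change was -0.57 (SE 0.12, limma adjusted p = 0.0189). Its call ended without replicate 1 (adjusted p = 0.0601) or replicate 2 (0.0691) of the cultures without glutamine and without replicate 2 of those with it (0.0624), while the change stayed between -0.68 and -0.49 when any 1 array was left out.

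S1pr1 encodes the receptor for sphingosine 1-phosphate (S1P) through which T cells leave lymphoid organs, and it is a classic target of KLF2. It read 7.73, 8.28 and 8.60 log2 without glutamine, against 8.40, 8.56 and 8.47 log2 with it. The groups overlapped: the highest and the lowest of all 6 arrays were both cultures without glutamine. The change of -0.27 was not called (limma adjusted p = 0.383), with a 95% interval from -0.77 to 0.23. Without replicate 1 of the cultures without glutamine, the lowest array, it was -0.037. The 95% interval for the change of Klf2 ran from 1.07 to 2.09.

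**Figure D2:**
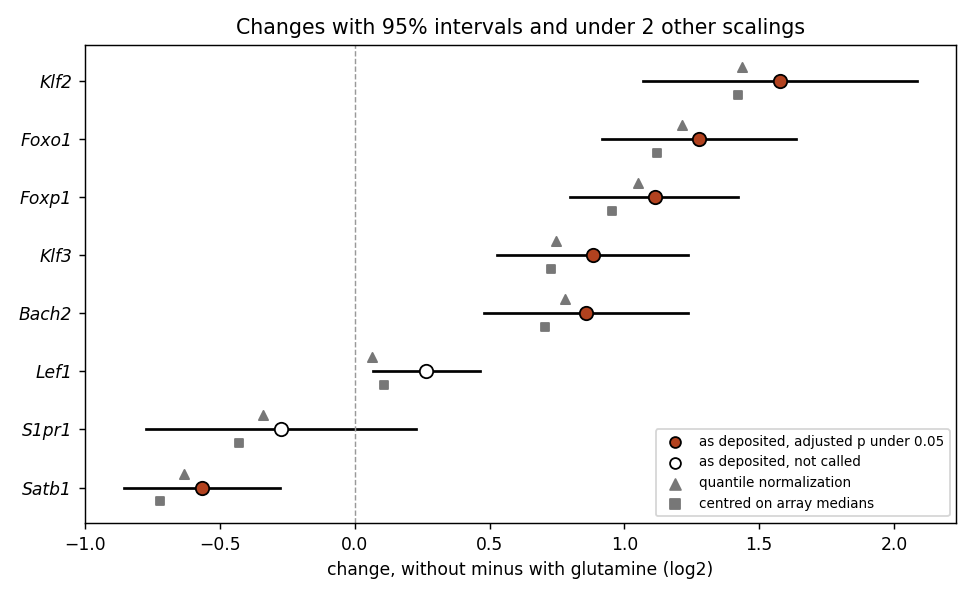
Change of each measured gene, without minus with glutamine, in log2. Circles are changes as deposited with their 95% limma intervals, filled where adjusted p was under 0.05; triangles and squares are the changes after quantile normalization and after centring on array medians. Klf2 is at the top at 1.58 and Satb1 at the bottom at -0.57, and both scalings lie to the left of each circle.

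Both scalings lowered the value of every gene of the set and ended no call of these genes. Against the size of its change the shift was large for Lef1, from 0.27 to 0.065 after quantile normalization. After centring, the 5 risers had changes of 1.42 for Klf2, 1.12 for Foxo1, 0.96 for Foxp1, 0.73 for Klf3 and 0.70 for Bach2, against a median over all genes of -0.095. Satb1 then stood at -0.72, Lef1 at 0.11 and S1pr1 at -0.43. The genes that rose passed the 0.05 threshold in each of 15 refits of the data, with the highest adjusted p at 0.0430, for Bach2.

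Replicate 3 without glutamine was the highest of its group for 8 of the 8 genes, but for 28.6% of all genes and for 36.1% of the genes called higher. With glutamine the highest array was replicate 1 for 1 gene, replicate 2 for 3 and replicate 3 for 4. The rises were also called without that array: Klf2 changed by 1.34, Foxo1 by 1.15, Foxp1 by 1.06, Klf3 by 0.85 and Bach2 by 0.77, and the highest limma adjusted p among them was 0.0405. Klf2 and S1pr1 had the widest spreads of the set without glutamine, with SDs of 0.44 each against a median SD over all genes of 0.11.

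The other KLF genes did not share the rise of Klf2 and Klf3. Of 15 measured, 0 were called higher, 5 were called lower and 10 were not called, with a median change of -0.087. Among all genes 9.30% were called higher and 13.0% lower. In the refit of the 15350 genes above the median level, 2425 were called higher and 4089 lower. Of the KLF genes not called, Klf1, Klf12 and Klf14 lay below the array medians and Klf17 near them. Klf7 averaged 9.79 ± 0.16 log2 without glutamine and 11.12 ± 0.09 with it, a change of -1.34 (limma adjusted p = 0.000471). Klf6, a broadly expressed immediate early factor, averaged 13.48 ± 0.23 without glutamine and 14.60 ± 0.22 with it, a change of -1.12 (limma adjusted p = 0.00393). Klf8 changed by -0.78 and Klf4, another factor that slows T cell proliferation, by -0.58. Klf5 changed by -0.25, below the array medians, and its call ended when any 1 array was left out (limma adjusted p 0.0527 to 0.109). After quantile normalization and after centring 0 of the 15 were called higher, and 5 and 6 were called lower.

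Among the FOXO and FOXP genes, Foxo3, a close relative of Foxo1 with overlapping targets, rose by 0.40 (limma adjusted p = 0.0082, and 0.0540 after centring). It read 9.04, 8.94 and 8.90 log2 without glutamine, against 8.57, 8.54 and 8.58 log2 with it, so that its groups were apart. Foxo4 changed by -0.11 and Foxp4 by 0.55, and neither was called. Foxo6 and Foxp2 lay below the array medians. Foxp3 is not analysed here because its row names several genes.

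**Figure D3:**
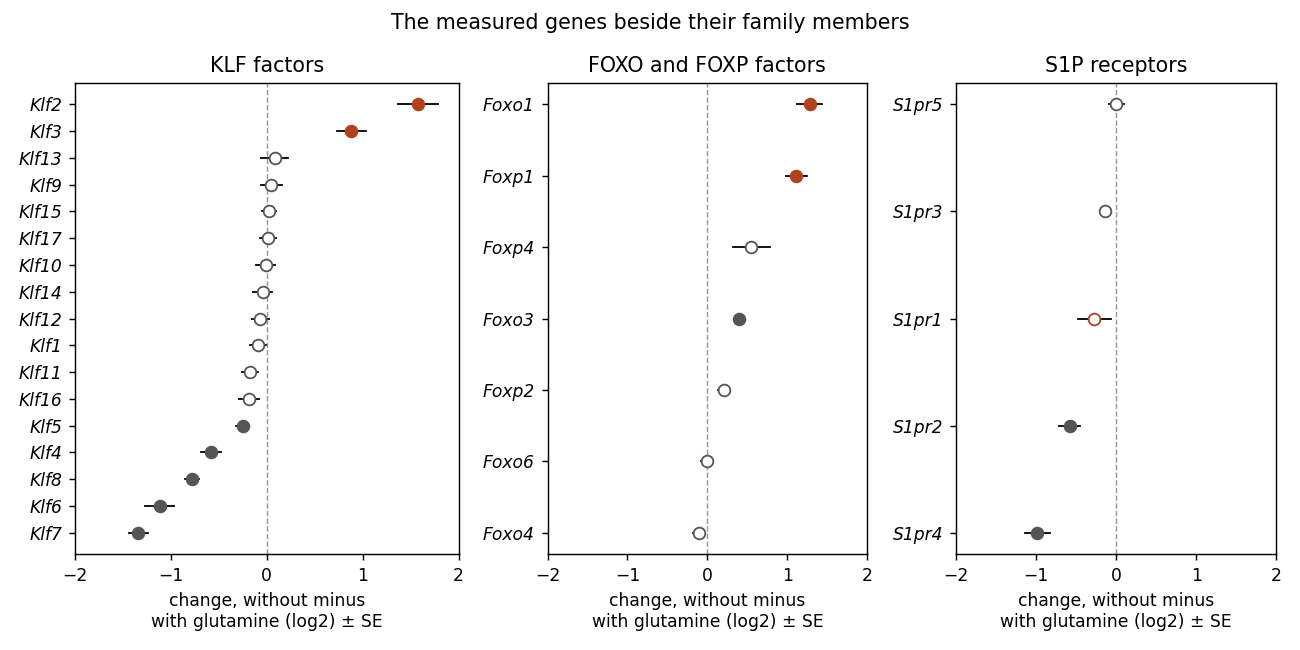
Changes of Klf2 and Klf3, of Foxo1 and Foxp1, and of S1pr1, in red, beside the other measured members of their families, in grey, as log2 without minus with glutamine ± SE. Filled circles passed the limma test. Klf7 is lowest in the KLF panel at -1.34 and S1pr4 in the S1P receptor panel at -0.99.

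Genes for the control of FOXO1, among them kinases, phosphatases and ubiquitin enzymes, gave 1 rise and 5 falls among 15 measured. A further 9 were not called, and the median change was -0.19. The shares of all genes were 9.30% higher and 13.0% lower. The riser of this list was Sgk1, a kinase that phosphorylates FOXO1 and is induced by IL-23 in TH17 cells. It read 7.13, 7.08 and 7.55 log2 without glutamine, against 6.29, 6.46 and 6.18 log2 with it, a change of 0.95 (limma adjusted p = 0.00595). Akt1, the main kinase that removes FOXO1 from the nucleus, changed by -0.58 (adjusted p = 0.00282). The phosphatase gene Phlpp2, which opposes AKT, changed by -0.72, and Skp2, part of a ubiquitin ligase for FOXO1, by -0.83. After centring 1 rose and 9 fell, where the shares of all genes were 3.96% and 20.0%.

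Genes known as FOXO targets were more often lower than higher. Of 16 measured, 2 were called higher, 9 were called lower and 5 were not called, with a median change of -0.51. Over all genes the shares were 9.30% higher and 13.0% lower. Il7r, the receptor gene for the survival cytokine IL-7, read 9.77, 10.05 and 10.17 log2 without glutamine, against 12.33, 12.93 and 12.56 log2 with it. That was a change of -2.61 (limma adjusted p = 0.000319). Gabarapl1, an autophagy gene, changed by -1.76, Irs2, an insulin signalling adaptor gene, by -1.34, and Ccng2, an atypical cyclin gene linked to arrest, by -0.96. Sesn3 and Fbxo32 were the 2 called higher, at 0.62 and 0.50. After quantile normalization and after centring 0 of the 16 rose and 9 fell. The homing receptor gene Ccr7 changed by 0.30 and was not called (adjusted p = 0.278).

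Of 13 measured genes of the TCF/LEF group, 2 rose, 0 fell and 11 were not called, with a median change of -0.014. Over all genes 9.30% were called higher and 13.0% lower. Tle4, a co-repressor that binds TCF and LEF factors, averaged 8.90 ± 0.13 log2 without glutamine and 8.09 ± 0.16 with it, and its groups did not overlap. Its change was 0.81 (limma adjusted p = 0.00381). Tcf7l2 rose by 0.38 (adjusted p = 0.00712) at a level near the array medians, 4.36 ± 0.02 log2 without glutamine and 3.98 ± 0.04 with it. Axin2, a feedback target of the pathway, changed by -0.065 and was not called. After centring 2 of the 13 rose and 2 fell. Ctnnb1 is not analysed here.

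Around Bach2, its relative Bach1 and the small MAF partner genes Mafk, Mafg and Maff were measured, and 0 of these 4 were called, with changes of -0.14 to 0.30. Of 9 measured genes known to be repressed by BACH2, 1 rose, 3 fell and 5 were not called, with a median change of 0.00. The shares of all genes were 9.30% higher and 13.0% lower. Ccr4, a chemokine receptor gene of helper T cells, changed by -2.10 (limma adjusted p = 0.000745), the granzyme gene Gzmb by -2.08 (adjusted p = 0.00562) and the cytokine gene Il13 by -0.96 (adjusted p = 0.00381). Ccl1 rose by 0.43 at a level below the array medians. Prdm1, which encodes Blimp-1 and is a well known BACH2 target, read 3.98 to 4.17 log2 without glutamine and 3.98 to 4.12 log2 with it, below the array medians in both groups. After centring 1 of the 9 rose and 4 fell.

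Some other genes of the S1P system were called. Of the 4 other S1P receptors 0 rose and 2 fell, where 9.30% of all genes were called higher and 13.0% lower. S1pr4, another S1P receptor of T cells, read 8.34, 8.62 and 8.73 log2 without glutamine, against 9.80, 9.54 and 9.32 log2 with it. The groups were apart, and the change was -0.99 (limma adjusted p = 0.00607). S1pr2 changed by -0.58 (adjusted p = 0.0248). That call ended when any 1 array was left out (adjusted p 0.0589 to 0.0874), except replicate 3 of the cultures without glutamine (0.00798). After centring 3 of the 4 fell, but S1pr3 and S1pr5 lay below the array medians in both groups.

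Among 12 measured genes of S1P synthesis, breakdown and signalling, 3 rose, 3 fell and 6 were not called, with a median change of -0.021. The shares over all genes were 9.30% higher and 13.0% lower. Cd69, an activation antigen that binds S1PR1 and pulls it into the cell, read 15.91, 15.64 and 15.46 log2 without glutamine, against 14.60, 14.33 and 14.79 log2 with it. All 3 arrays without glutamine were above all 3 with it, and the change was 1.10 (limma adjusted p = 0.00446). Sgpl1, the lyase that destroys S1P, rose by 0.61 (adjusted p = 0.0086), and Plpp1, a lipid phosphatase gene, fell by 0.79. Gnai2, the G protein subunit through which S1PR1 signals, fell by 0.55 (adjusted p = 0.0159, and 0.0537 without replicate 2 of the cultures with glutamine).

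**Figure D4:**
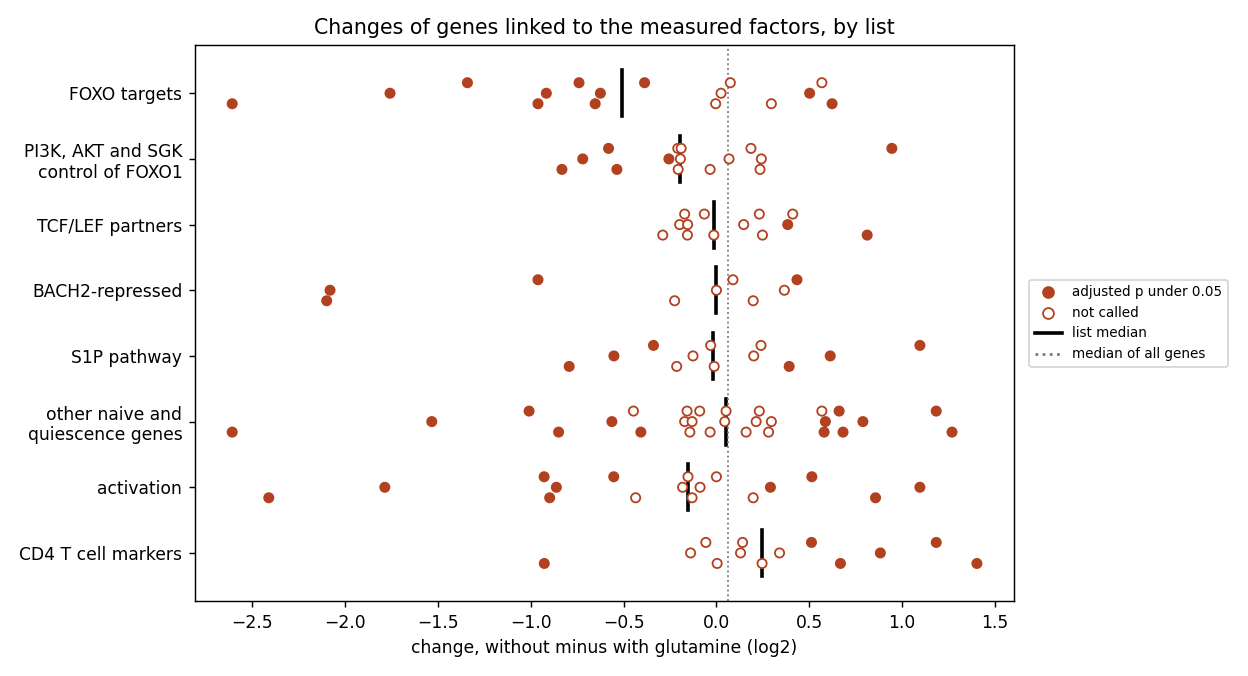
Changes of every measured gene in 8 lists linked to the naive and quiescence factors, as log2 without minus with glutamine. Filled dots passed the limma test, black bars are list medians and the dotted line is the median of all genes at 0.060. The FOXO target list has the lowest median, -0.51, and the CD4 T cell markers the highest, 0.25.

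Other genes of naive and resting T cells moved both ways. Of 28 measured, 7 rose, 6 fell and 15 were not called, with a median change of 0.049. Over all genes 9.30% were called higher and 13.0% lower. Vsir, which encodes the checkpoint protein VISTA that keeps naive T cells quiet, read 9.24, 9.32 and 9.24 log2 without glutamine, against 8.14, 7.90 and 7.95 log2 with it, a change of 1.27 (limma adjusted p = 0.000327). Bcl11b, a factor of T lineage commitment, rose by 1.18 (adjusted p = 0.00381). The largest falls were those of Il7r, given above, and Slfn1, a growth-regulatory gene, which changed by -1.53 (adjusted p = 0.0382, and 0.0773 to 0.111 without replicate 1 or 2 of either group). After centring 5 rose and 7 fell. Genes of activation and exit from quiescence gave 4 rises and 6 falls among 17, with a median change of -0.15, and 3 rises and 9 falls after centring.

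Among the genes whose products were used in the sort, Cd44, an adhesion receptor gene that naive cells carry at low levels, changed by -0.13 (limma adjusted p = 0.451). Il2ra, the gene for CD25, changed by 0.29 (adjusted p = 0.0323). Its change was 0.031 (adjusted p = 0.865) after quantile normalization, so that rise depended on the scaling, and its call ended when any 1 array was left out (adjusted p 0.0540 to 0.0924). Myc, a driver of growth after activation, changed by -0.088 (adjusted p = 0.453). Of the other activation genes, the costimulatory receptor genes Tnfrsf9 and Icos changed by -2.41 and -1.79, and the transferrin receptor gene Tfrc by -0.93 (adjusted p = 0.0118). Beside Cd69 and Il2ra, the genes of this list called higher were those of the transcription factors Egr2 and Irf4, which respond to T cell receptor signals. Nr4a1, another transcription factor gene of this list, went the other way, with a change of -0.90 (limma adjusted p = 0.00256). It averaged 12.38 ± 0.15 log2 without glutamine and 13.28 ± 0.14 with it, and its groups did not overlap. Egr2 rose by 0.86 (limma adjusted p = 0.0176), and its call ended without replicate 1 or 2 of either group (adjusted p 0.0517 to 0.0679). Irf4 rose by 0.51 (limma adjusted p = 0.012), and by 0.13 with the call lost after quantile normalization (adjusted p = 0.455).

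T cell markers were present in both groups. The mean level over 13 CD4 T cell markers was 13.53 to 13.62 log2 without glutamine and 13.18 to 13.34 log2 with it, and 5 of them rose, 1 fell and 7 were not called (4 rose and 3 fell after quantile normalization). The shares over all genes were 9.30% higher and 13.0% lower, and 4.74% and 17.1% after quantile normalization. Cd4 read 16.31 to 16.51 log2 without glutamine and 16.53 to 16.66 log2 with it. Its change of -0.14 was not called on the deposited scale (limma adjusted p = 0.275), but was called at -0.52 after quantile normalization (adjusted p = 0.00637). Trat1, which encodes an adaptor of the T cell receptor, averaged 12.42 ± 0.33 log2 without glutamine and 11.02 ± 0.18 with it (limma adjusted p = 0.00302), and Thy1 fell by 0.93. The 5 B cell markers averaged 3.87 to 4.01 log2 without glutamine and 3.86 to 3.88 log2 with it, and the 4 endothelial markers 3.46 to 3.53 log2 and 3.46 to 3.48 log2, both below the array medians. Of 11 macrophage and dendritic cell markers, Cd68 rose by 1.58 and Lyz2 fell by 1.66, and the other 9 were not called. Of 6 NK and CD8 markers 2 fell, Klrk1 by 0.80 and Cd8b1 by 0.71, and Ncr1, Klrb1c and Cd8a lay below the array medians. The part of other cells in the changes of the naive genes was not tested.

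For each gene, the profiles most like it over the 6 arrays were found by the Euclidean distance between log2 profiles centred on their own means. The search covered protein coding and long noncoding genes, without those under predicted or clone-type names, small RNAs and olfactory receptor genes. Nearest to Klf2 were Aopep (distance 0.26) and Cd68 (0.30). Nearest to Klf3 were Hps3 (0.12) and Cd55b (0.15), and nearest to Foxo1 were Utrn and Flt3l (0.20 each). Foxp1 had Med14 (0.11) and Zfp827 (0.13), and Bach2 had Smg6 (0.10) and Aoc2 (0.13). For Satb1 they were Prag1 and Asap2 (0.15 each). These genes changed by nearly the same amount, as the measure requires: Utrn by 1.25 and Flt3l by 1.30, for example, and Med14 by 1.19. The profiles nearest to Lef1, of Cyp4a12b (0.05) and Ang6 (0.06), and to S1pr1, of Proser3 and Pacs1 (0.24 each), belong to genes that were not called. With 2 groups of 3 arrays, genes with a like difference between the groups score as alike.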

How the data were processed

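Per the submitters' processing notes, RMA and the Transcriptome Analysis Console 4.0 gave the deposited log2 levels; the options, annotation and genome build are not stated there. All 6 columns entered unchanged, and 0 columns belonged to other samples. Rows were named through the platform annotation, with 1138 symbols updated through RefSeq (GRCm38.p6). Of 65956 rows, 31258 named 1 gene, 1492 several and 33206 are unnamed here. Where a symbol had several rows, the one with the highest mean was taken, which left 30701 genes; dim ones were kept.

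Differences were tested two-sided by lmFit and eBayes of limma 3.58.1 (R 4.3.3), without covariates, with a threshold of 0.05 after Benjamini-Hochberg adjustment over all genes. With 3 arrays per group, their number limits precision. The genes, lists and naming rule were chosen with earlier results of these data known. The rule took all listed genes, their relatives, a fixed set and the 2 nearest profiles. It also took up to 4 of the largest non-overlapping called changes per list. Uncalled relatives are named only in part. Sesn3, Fbxo32, Axin2, the small MAF genes, Ncr1, Klrb1c, Cd8a, Egr2, Irf4, Nr4a1 and Bach2os were added after their values were seen. List genes whose rows name no single gene are not analysed here. Promoters came from RefSeq (GRCm38.p6). Figures were drawn with matplotlib 3.10.9. Alternatives were other scalings, dim-gene filter, rows, moderation, weights, replicate block, stricter thresholds, leaving out each array, and, added after seeing the data, protein coding genes only.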

Additional observations from a re-analysis of the deposited data

How the results depend on the processing

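Of the 120 changes of the 8 measured genes recomputed under alternatives, 115 kept direction and side of the threshold. For Satb1 3 calls were lost, Lef1 was called in 2, and 0 changes reversed. The alternatives on genes and rows tested, on moderation and on the replicate block leave the size of these changes as it is. They could move a call but not reverse a change. The count of 5 higher genes was 3 with a change of at least 1 log2 required, 4 at adjusted p under 0.01, where Bach2 was lost, 6 with array weights or among protein coding genes only, where Lef1 joined, and 5 in the other alternatives. The count of 1 lower gene was 0 with at least 1 log2 required and 0 at adjusted p under 0.01, and ranged from 0 to 1 when single arrays were left out.

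Of all genes, 6845 were called (2856 higher, 3989 lower). There were 2944 at adjusted p under 0.01, 1253 with at least 1 log2 added, and 10951 when all 65956 rows were tested. Leaving out single arrays gave 4061 to 6502. Scaling moved the split to 1455 higher and 5252 lower after quantile normalization and to 1216 and 6128 after centring. Across genes, the deviations of same-numbered arrays from their group means correlated with r of 0.066, -0.234 and 0.276. For differently numbered arrays r ran from -0.334 to 0.3. With 3 arrays per group these values cannot settle a pairing. The labels state none, so the numbers are not taken to pair the cultures. With the replicate block 6293 genes were called, and the 5 higher and 1 lower genes stayed called.

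Among other named genes, the near-zero changes of Prdm1 and Cd3e changed sign. Prdm1 stood at -0.138 after quantile normalization, -0.156 after centring, 0.003 with array weights and -0.055 to 0.040 without single arrays. Cd3e stood at -0.418 (adjusted p = 0.0328) after quantile normalization, -0.151 after centring and -0.027 to 0.047 without single arrays. After quantile normalization Cd4 gained a call, at -0.523, and Irf4 lost its own, at 0.126. The cause was not tested.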
